A study of Mus musculus with 16 samples.

Results

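The genes described here are the proteasome subunits and their named relatives, taken as every gene of the deposited table whose name begins with Psma, Psmb, Psmc, Psmd, Psme or Psmf followed by a number. The rule found 45 of 16118 genes. RNA of the atria and of the ventricles was sequenced from 8 adult male littermate mice, which gives 16 libraries in 4 groups of 4. The idKO mice carried Meis1flox/flox, Meis2flox/flox and one copy of alpha-MHC-MerCreMer (tg/wt), a tamoxifen-activated Cre driven by a cardiomyocyte promoter. The control mice carried both floxed alleles without the Cre transgene (wt/wt), so any effect of the transgene itself is part of every idKO difference. Hearts of both genotypes were taken 2 weeks after tamoxifen, and each mouse gave one atrial and one ventricular library. The Cre promoter is that of cardiomyocytes, while the libraries hold RNA of all cells of the chamber.

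The proteasome is the protease that degrades proteins tagged with ubiquitin. Its 20S core is a barrel of alpha rings outside and beta rings inside, and the proteolytic sites lie on the beta subunits encoded by Psmb5, Psmb6 and Psmb7. The 19S particle caps the core, binds ubiquitin chains and unfolds substrates with a ring of ATPases. In cells exposed to interferon, and in many immune cells at rest, Psmb8, Psmb9 and Psmb10 supply the alternative catalytic subunits of the immunoproteasome, which take the places of the Psmb5, Psmb6 and Psmb7 products. PA28, encoded by Psme1 and Psme2, and PA200, encoded by Psme4, are other caps that open the core without ATP. Cardiac muscle relies on the proteasome for the turnover of sarcomere and mitochondrial proteins.

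By role, the 45 genes divided into 7 alpha ring genes (Psma1 to Psma7), 7 constitutive beta ring genes (Psmb1 to Psmb7), 6 genes of the 19S ATPases (Psmc1 to Psmc6) and 11 of the 19S non-ATPase subunits, together 31 constitutive subunits. To these come the 3 immunoproteasome genes, the 2 PA28 genes, a set of 3 with the activators Psme3 and Psme4 and the inhibitor Psmf1, and 3 chaperones of 19S assembly that carry Psmd names (Psmd5, Psmd9 and Psmd10). Psma8 encodes an alpha subunit of the testis. The rule also took in 2 genes that are no subunits, namely Psmc3ip, a recombination factor named for an interaction, and Psme2b, a retrogene copy of Psme2. Of the 45, all were tested in ventricles and in the comparisons over all libraries, and 43 in atria, where Psma8 and Psme2b lay below the filter on low values.

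Depth was 13.1 to 21.8 M recovered reads per library (M, 1000000 reads). Meis2 measured 7.78, 8.51, 9.35 and 9.66 in idKO ventricles, against 32.6, 26.6, 22.4 and 25.6 in control ventricles, and was called lower (log2 fold change -1.49, limma adjusted p = 2.0e-05). Meis1 measured 23.1 ± 2.29 in idKO ventricles and 27.3 ± 0.767 in control ventricles and was not called (limma adjusted p = 0.236; SD, n = 4 each). Each idKO ventricle lay below each control ventricle in Meis1. In atria neither gene was called, at 17.7 ± 1.64 in idKO and 20.0 ± 1.48 in control atria for Meis2. Meis1 measured 26.4, 30.3, 28.9 and 33.0 in idKO atria, against 27.3, 27.9, 25.7 and 32.4 in control atria. The gene totals include any transcript the deleted alleles still make. Cardiomyocyte markers were abundant in every library, with a summed level of 6 genes of at least 47641.

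Values are normalised counts, that is reads divided by the authors' effective library size and multiplied by 1000000. That size was 0.958 of the reads in idKO atria, 0.947 in control atria, 0.687 in idKO ventricles and 0.639 in control ventricles. A difference between atria and ventricles therefore depends on this scaling, while a ratio of 2 genes within a library does not.

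The immunoproteasome genes had a lower median level than the constitutive subunits in each group. Per kilobase of the principal transcript, the 31 constitutive genes had a median of 55.8 normalised counts in idKO atria, 56.3 in control atria, 74.0 in idKO ventricles and 76.3 in control ventricles. In control ventricles they spanned 33.5 for Psmd11 to 171 for Psmb7. The immunoproteasome genes had medians of 11.5, 11.7, 10.8 and 8.98 per kilobase in the same order of groups, and Psmb10 was the highest of the 3 in each group. In idKO ventricles Psmb10, at 37.5 per kilobase, lay above Psmd11, the lowest constitutive gene, at 29.8. The 3 assembly chaperones had medians of 6.14 in idKO atria, 6.2 in control atria, 7.81 in idKO ventricles and 7.48 in control ventricles. Psma8, the testis subunit, stood at 0.511 in idKO atria, 0.570 in control atria, 0.882 in idKO ventricles and 1.08 in control ventricles. With the length of all annotated exons in place of the principal transcript, the constitutive median in control ventricles was 42.2 and the immunoproteasome median 4.32.

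Replicates varied little for the constitutive subunits. Their median coefficient of variation over the 4 mice was 4.99% in idKO atria, 5.82% in control atria, 5.66% in idKO ventricles and 5.94% in control ventricles. The median over all 14871 genes tested was 11.8%, 11.8%, 12.5% and 11.9% in the same groups. The subunits were well expressed, and counting error is smaller for genes with more reads.

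On the deposited scale the immunoproteasome genes lay higher in idKO than in control ventricles in their means, while their constitutive partners lay lower. The balance between the sets was higher in each idKO ventricle than in each control ventricle. No immunoproteasome gene passed the test by itself in limma, DESeq2 or edgeR, and 2 of the 3 had an unadjusted p under 0.05, as did 15.0% of all genes tested in ventricles. The promoters of 2 immunoproteasome genes and of 2 of the catalytic genes they replace are shown because these sets are contrasted here. They are RefSeq windows of 280 bases on GRCm38.p6, from 250 bases before the transcript start to 30 after it, on the strand of the gene, and capitals mark a motif match. The windows lie at chr17:34197945-34198224 for Psmb8, on the plus strand, and at chr17:34187301-34187580 for Psmb9, on the minus strand. Psmb5 is shown at chr14:54617966-54618245, on the minus strand, and Psmb6 at chr11:70525107-70525386, on the plus strand.
Psmb8: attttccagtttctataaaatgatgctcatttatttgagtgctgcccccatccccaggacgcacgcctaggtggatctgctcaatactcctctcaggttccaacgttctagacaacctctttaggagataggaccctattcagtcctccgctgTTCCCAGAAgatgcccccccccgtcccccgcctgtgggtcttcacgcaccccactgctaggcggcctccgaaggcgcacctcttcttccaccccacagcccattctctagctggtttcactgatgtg
Psmb9: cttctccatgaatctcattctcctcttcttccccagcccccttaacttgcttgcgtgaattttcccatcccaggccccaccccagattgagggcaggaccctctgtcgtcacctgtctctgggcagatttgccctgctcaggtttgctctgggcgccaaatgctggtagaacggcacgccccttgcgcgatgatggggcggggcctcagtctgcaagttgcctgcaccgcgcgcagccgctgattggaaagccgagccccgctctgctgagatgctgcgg
Psmb5: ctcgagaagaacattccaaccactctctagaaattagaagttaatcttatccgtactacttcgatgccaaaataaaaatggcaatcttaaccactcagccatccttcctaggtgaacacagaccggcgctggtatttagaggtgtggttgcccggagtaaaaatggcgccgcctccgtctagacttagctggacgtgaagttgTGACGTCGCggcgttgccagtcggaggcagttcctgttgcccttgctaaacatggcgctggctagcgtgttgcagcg
Psmb6: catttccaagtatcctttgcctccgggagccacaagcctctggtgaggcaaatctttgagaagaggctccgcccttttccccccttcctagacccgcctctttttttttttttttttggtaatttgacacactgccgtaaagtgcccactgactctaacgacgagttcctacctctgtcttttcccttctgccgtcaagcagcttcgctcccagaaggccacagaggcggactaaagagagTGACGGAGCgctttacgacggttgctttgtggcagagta

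The capitals in Psmb8 mark TTCNNNGAA, the letters of a gamma-activated site. Those in Psmb5 and Psmb6 mark TGACNNNGC, the core of an antioxidant response element, bound by NFE2L2 and, in many proteasome promoters, by NFE2L1. Psmb9 held none of the 4 motifs searched. In the GENCODE annotation the gene starts at 34187764, upstream of the RefSeq window shown. In that annotation it overlaps Tap1, a peptide transporter of MHC class I on the opposite strand, by 212 bases. Reads from that stretch cannot be assigned without strand. Promoter windows were found for 38 of the 45 genes (41 windows). On both strands, TGACNNNGC was present in 14.6% of these windows and in 11.5% of 32851 windows of all genes. GAAANNGAA, from the interferon-stimulated element, was present in 14.6% and 8.06%, TTCNNNGAA in 4.88% and 7.83%, and TGACAG, the core of a MEIS site, in 14.6% and 17.8%. TGACAG shares its opening letters with TGACNNNGC, so a site can hold both. A match describes letters and is no evidence of binding.

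Psmb8, which replaces Psmb5, measured 15.4, 17.6, 14.2 and 23.2 in idKO ventricles, against 12.4, 16.1, 14.4 and 15.5 in control ventricles. The groups overlapped, and idKO ventricle 4 was the highest library. The log2 fold change was 0.23 ± 0.14 (SE; limma adjusted p = 0.486). Psmb9, which replaces Psmb6, measured 8.69, 8.34, 9.20 and 9.74 in idKO ventricles and 4.45, 9.48, 5.38 and 6.82 in control ventricles. Control ventricle 2 stood among the idKO libraries and the other 3 controls lay below all of them. Its log2 fold change was 0.45 ± 0.18 with an unadjusted p of 0.028 that did not pass (limma adjusted p = 0.267). Psmb10, which replaces Psmb7, measured 51.1, 50.0, 48.9 and 46.6 in idKO ventricles and 40.2, 50.8, 39.9 and 41.1 in control ventricles, again with control ventricle 2 among the idKO libraries (log2 0.19 ± 0.09, limma adjusted p = 0.308).

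The partners lay on the other side on the deposited scale. Psmb5, the chymotrypsin-like site, measured 114, 104, 90.4 and 96.5 in idKO ventricles against 101, 116, 117 and 105 in control ventricles, and the groups overlapped. Psmb6, the caspase-like site, measured 116, 122, 125 and 119.8 in idKO ventricles against 128, 149, 134 and 134 in control ventricles, and each idKO library lay below each control. Psmb7, the trypsin-like site, measured 181, 161, 187 and 179 in idKO ventricles against 191, 217, 202 and 183 in control ventricles, where one idKO library exceeded one control. Their log2 fold changes were -0.12 for Psmb5, -0.17 for Psmb6 and -0.16 for Psmb7. None was called (limma adjusted p = 0.534, 0.204 and 0.281). Over 20 alternative scalings, filters, fits and sets of libraries, Psmb5 ran from -0.18 to -0.016. Psmb6 ran from -0.20 to -0.070 and Psmb7 from -0.20 to -0.061, so the size of these falls depends on the scaling.

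In atria the differences were smaller for Psmb8 and Psmb9 and of like size for Psmb10. Psmb8 measured 21.4, 16.5, 16.1 and 20.8 in idKO atria against 17.4, 21.5, 20.4 and 16.9 in control atria. Psmb9 measured 9.25, 8.11, 9.47 and 11.5 in idKO atria against 7.15, 12, 9.84 and 9.19 in control atria, and for both genes the groups overlapped fully. Psmb10 measured 32.3, 31.7, 26.3 and 33.8 in idKO atria against 25.7, 29.0, 27.6 and 23.3 in control atria. Only idKO atrium 3 lay among the controls for Psmb10, and the log2 fold change of 0.22 ± 0.10 did not pass (unadjusted p = 0.043, limma adjusted p = 0.966). The constitutive partners Psmb5, Psmb6 and Psmb7 changed by log2 values of -0.01, 0.08 and 0.04 in atria, none of them called.

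**Figure D1:**
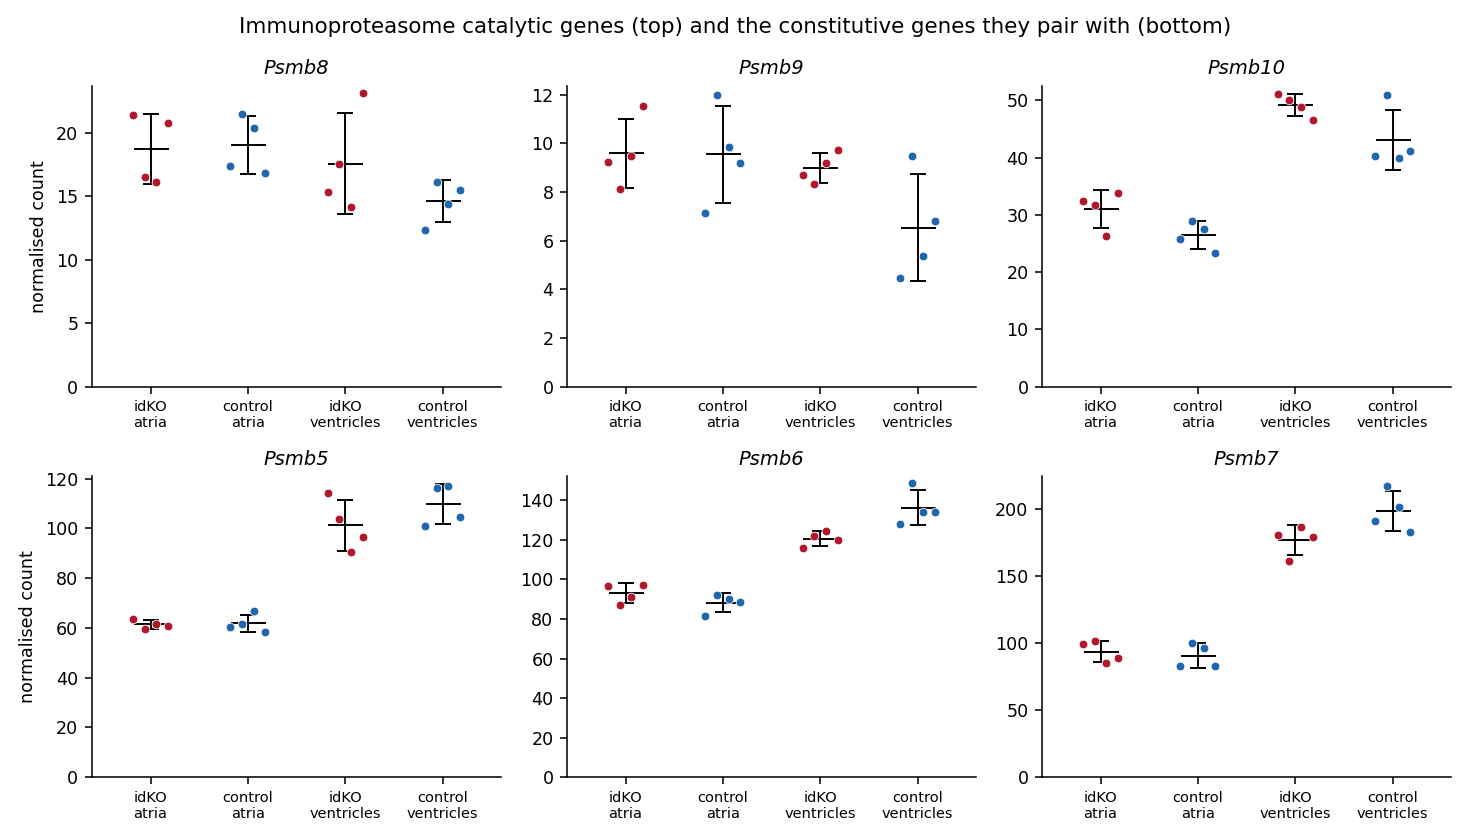
Normalised counts (y axes, from 0) of the immunoproteasome genes Psmb8, Psmb9 and Psmb10 and of the constitutive partners Psmb5, Psmb6 and Psmb7 in each library; points are libraries, bars the mean and SD of 4. In ventricles the upper genes average higher in idKO and the lower genes average lower, while in atria the groups overlap for all 6 genes.

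The summed ratio of the immunoproteasome genes to their partners, which no scaling of the libraries can alter, separated the ventricles by genotype. The ratio of Psmb8, Psmb9 and Psmb10 together to Psmb5, Psmb6 and Psmb7 together was 0.183, 0.196, 0.180 and 0.201 in idKO ventricles, against 0.136, 0.159, 0.132 and 0.150 in control ventricles. The lowest idKO ventricle thus exceeded the highest control. Psmb10 made up most of the upper sum, with a mean of 49.2 of 75.7 in idKO and 43.0 of 64.2 in control ventricles. The means were 0.190 ± 0.010 in idKO and 0.144 ± 0.013 in control ventricles (SD, n = 4 each), a difference of 0.40 on the log2 scale, and no test was made of this summed value. Without idKO ventricle 4, the highest in Psmb8, the difference was 0.37. In atria the ratio was 0.243, 0.227, 0.219 and 0.268 in idKO libraries and 0.223, 0.246, 0.228 and 0.215 in control libraries, and the groups overlapped. The means there were 0.239 ± 0.022 in idKO and 0.228 ± 0.013 in control atria, or 0.07 on the log2 scale.

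The atria stood above the ventricles in this ratio in both genotypes. Control atria exceeded control ventricles by 0.66 on the log2 scale, and idKO atria exceeded idKO ventricles by 0.33. In both genotypes the lowest atrium lay above the highest ventricle. Pair by pair, Psmb8 over Psmb5 was 0.304 in idKO atria, 0.307 in control atria, 0.175 in idKO ventricles and 0.133 in control ventricles. Psmb9 over Psmb6 was 0.103, 0.108, 0.075 and 0.047 in that order of groups, and Psmb10 over Psmb7 was 0.333, 0.292, 0.279 and 0.217. In ventricles Psmb9 over Psmb6 and Psmb10 over Psmb7 did not overlap between genotypes, while Psmb8 over Psmb5 did. That pair stood at 0.135 in idKO ventricle 1, against 0.139 and 0.148 in control ventricles 2 and 4. In control hearts the pairs Psmb8 over Psmb5 and Psmb9 over Psmb6 differed more between chambers than Psmb10 over Psmb7. No stretch of the length of a read (60 bases) was shared between an immunoproteasome transcript and its partner.

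**Figure D2:**
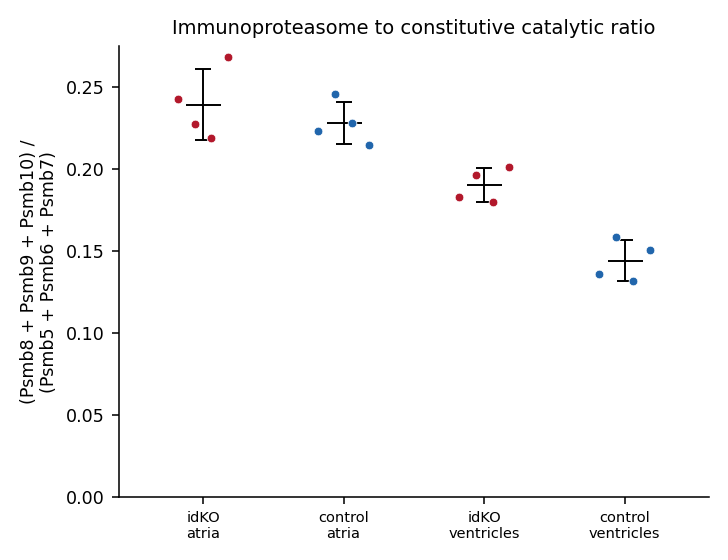
Ratio of the summed normalised counts of Psmb8, Psmb9 and Psmb10 to those of Psmb5, Psmb6 and Psmb7 (y axis, no unit, from 0) in each library; points are libraries, bars the mean and SD of 4. The 4 idKO ventricles lie between 0.180 and 0.201, above the control ventricles, which reach 0.159, and both sets of atria lie higher and overlap.

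Genes of immune cells moved in the same ventricles. Of the 4 antigen-presenting genes, Cd74, H2-Ab1 and H2-Aa were called higher in idKO ventricles, with a list median of 0.64 on the log2 scale. Their summed level ran from 363 to 538 in idKO ventricles, against 261 to 347 in control ventricles, so the ranges did not overlap. In atria, where the ratio did not separate the genotypes, none of the 4 was called, all 4 had an unadjusted p under 0.05, and the sum ran from 440 to 558 in idKO against 353 to 412 in control libraries, again without overlap (list median 0.38). Among 7 macrophage markers 1 was called higher, Lyz2 (log2 0.37, limma adjusted p = 0.029). The macrophage sum ran from 372 to 459 in idKO and from 334 to 344 in control ventricles. Of the lymphocyte list 5 of 8 genes are in the table and 1 was tested in ventricles without a call, and the sum ran from 11 to 14.9 in idKO against 11.9 to 12.6 in control ventricles. In atria 5 lymphocyte genes were tested with a median of -1.32 and no call, 3 of them with an unadjusted p under 0.05. The sum of 3 mesothelial markers ran from 7 to 18.9 in idKO ventricles and from 22.3 to 26.9 in control ventricles, with Msln called lower (log2 -1.14, limma adjusted p = 0.011). The part of these cells in the immunoproteasome ratio was not tested, and in bulk tissue fewer cells of a type and less RNA per cell cannot be told apart.

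Genes that act beside the immunoproteasome showed a mixed picture. Among 10 genes of MHC class I peptide loading, B2m, the light chain of MHC class I, was called higher in idKO ventricles (log2 0.53, limma adjusted p = 0.036), and the list median was 0.16 against -0.01 for all genes tested (0.15 in atria). None was called in atria, where H2-K1, H2-D1 and B2m had log2 values of 0.33, 0.30 and 0.35. Of 16 interferon genes 2 were called higher in idKO ventricles, the GTPase gene Iigp1 (log2 0.45, limma adjusted p = 0.015) and the oligoadenylate synthetase gene Oas2 (0.78, limma adjusted p = 0.028), with a list median of 0.14. In atria the interferon list had a median of 0.22, with 13 of 16 positive. Irf1, a regulator of the immunoproteasome genes, had a log2 value of 0.11 and was not called (limma adjusted p = 0.640). Library idKO ventricle 4, the highest in Psmb8, also had the highest sum of interferon genes, at 414 where the control ventricles reached 311, and the highest sum of MHC class I genes among ventricles, at 1453.

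Across all 45 genes, idKO ventricles differed from control ventricles by 2 calls, both lower, in the activator genes Psme4 and Psme1. No member was called higher. Of all 13144 genes tested in ventricles 0.533% were called higher and 1.50% lower. The promoters of both genes are shown, with the window of Psme4 at chr11:30771525-30771804 and that of Psme1 at chr14:55578244-55578523, each on the plus strand and cut as above.
Psme4: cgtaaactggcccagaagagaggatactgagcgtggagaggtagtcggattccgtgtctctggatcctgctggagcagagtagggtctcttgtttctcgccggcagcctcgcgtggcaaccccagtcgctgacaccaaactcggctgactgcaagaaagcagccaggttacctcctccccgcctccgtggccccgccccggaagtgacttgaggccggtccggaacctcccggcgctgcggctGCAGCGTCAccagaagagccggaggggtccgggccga
Psme1: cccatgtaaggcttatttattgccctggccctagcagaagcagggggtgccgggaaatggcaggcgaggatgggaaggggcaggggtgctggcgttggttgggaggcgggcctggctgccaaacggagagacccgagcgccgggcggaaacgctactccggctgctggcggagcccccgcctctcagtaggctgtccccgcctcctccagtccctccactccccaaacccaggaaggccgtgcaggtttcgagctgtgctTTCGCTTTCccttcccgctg

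The capitals in Psme4 mark the reverse complement of TGACNNNGC, and those in Psme1 the reverse complement of GAAANNGAA. Psme4 encodes PA200, a large nuclear cap of the core. It measured 379, 345, 378 and 441 in idKO ventricles, against 515, 505, 514 and 504 in control ventricles. All 4 controls lay within a narrow band above every idKO library. The log2 fold change was -0.41 ± 0.07 (SE, limma adjusted p = 0.0082), or 75.7% of the control level. In atria Psme4 measured 207, 218, 228 and 249 in idKO libraries against 235, 248, 237 and 275 in control libraries, which overlapped, and was not called (log2 -0.14 ± 0.07, limma adjusted p = 0.966). The difference of the genotype effects between chambers was 0.26 ± 0.10 and was not called (limma adjusted p = 0.623). With an untrended prior the ventricular call of Psme4 was lost (adjusted p = 0.082).

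Psme1, the alpha subunit of PA28, differed between genotypes in ventricles and differed in that effect between chambers. It measured 135, 114, 107 and 109.9 in idKO ventricles, against 141, 151, 149.8 and 157 in control ventricles, and the groups did not overlap. The log2 fold change was -0.36 ± 0.08 (limma adjusted p = 0.027). In atria it measured 72.5, 66.7, 67.7 and 67.7 in idKO libraries against 63.3, 64.4, 67.0 and 60.9 in control libraries, with a log2 fold change of 0.10 ± 0.06 that was not called. The difference, atrial effect less ventricular effect, was 0.46 ± 0.09 (limma adjusted p = 0.043, and 0.00873 with the mouse as a random block). It was the only member called for this difference, and over all 14871 genes 0.269% were called higher and 0.0269% lower. The ventricular call was lost in 9 of 20 alternatives, among them each rescaling to nuclear genes, to all genes or to the constitutive subunits (adjusted p = 0.081, 0.140 and 0.129) and the removal of idKO ventricle 2 or 3 or of control ventricle 2, 3 or 4. The call of the difference was lost in 12 of 21. Each of those 12 fits left out the pairing by mouse, and the call stayed with the mouse as a random or fixed block.

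Psme2, the beta subunit that forms a ring with the Psme1 product, did not move with it. It measured 58.1, 59.3, 55.2 and 66.7 in idKO ventricles and 53.4, 61.8, 58.4 and 63.6 in control ventricles, which overlap, with a log2 fold change of 0.01 ± 0.08. Psme1 over Psme2 was 1.96 ± 0.28 in idKO ventricles and 2.53 ± 0.089 in control ventricles, where the highest idKO value, 2.33, lay below the lowest control, 2.45. In atria the ratio was 1.58 ± 0.035 in idKO and 1.6 ± 0.14 in control libraries. The PA28 transcripts share no stretch of read length. Psme2b, the copy of Psme2, shares 64.8% of its read-length stretches with it, so its values, at most 2.08, are uncertain.

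The gene just before Psme1 on chromosome 14 moved like it and was singled out after its values were seen. Fitm1, which encodes a lipid droplet protein of striated muscle, lies on the same strand and ends 1168 bases before Psme1 starts. This holds for the GENCODE annotation of GRCm38, where Psme1 starts at 55578123, upstream of the RefSeq window shown. It measured 90.8, 75.0, 78.1 and 82.2 in idKO ventricles, against 116, 124, 113 and 118 in control ventricles, and was called lower (log2 -0.53 ± 0.07, limma adjusted p = 0.0012). In atria it measured 45.2, 44.3, 45.8 and 51.0 in idKO libraries and 44.6, 50.2, 45.8 and 45.6 in control libraries, without a difference. Psme1 over Fitm1 was 1.43 ± 0.090 in idKO ventricles and 1.27 ± 0.064 in control ventricles, where the lowest idKO value, 1.34, lay just above the highest control, 1.33. The part of Fitm1 transcripts in the Psme1 values was not tested. Psme1 also overlaps Emc9 by 14 bases, and the library kit is not stated to keep the strand. Emc9 ran from 28.7 to 33.8 in idKO ventricles, below the 34.3 to 38.4 of control ventricles, without a call (log2 -0.22, limma adjusted p = 0.220), and overlapped in atria.

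**Figure D3:**
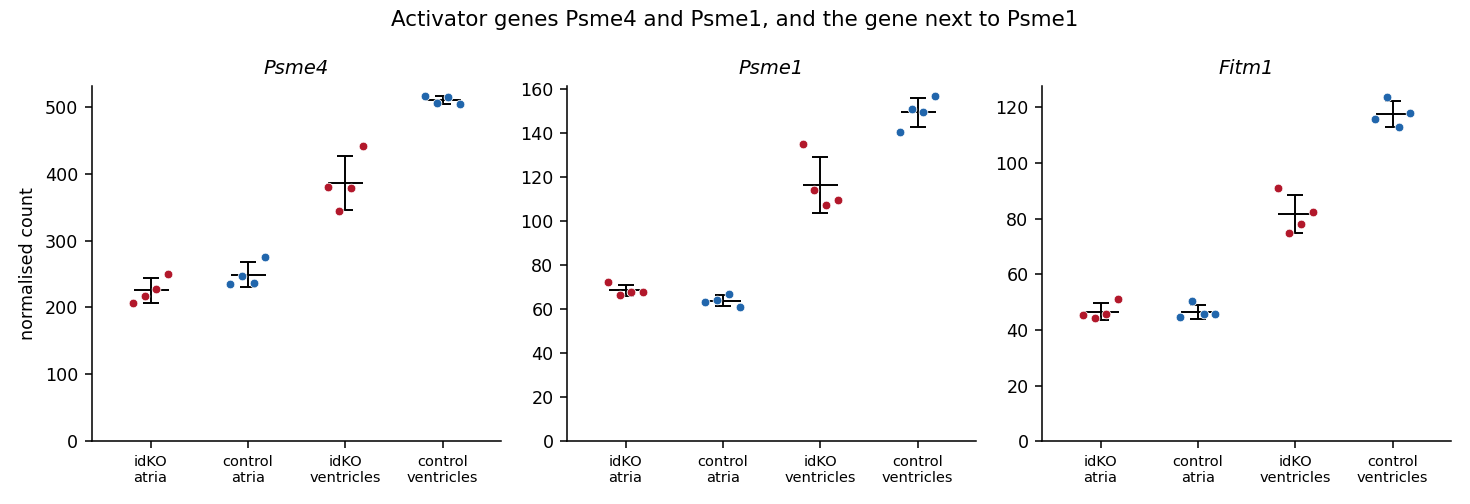
Normalised counts (y axes, from 0) of the activator genes Psme4 and Psme1 and of Fitm1, the gene before Psme1, in each library; points are libraries, bars the mean and SD of 4. In ventricles every idKO library lies below every control for all 3 genes, and in atria the groups overlap.

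The other members of these classes were not called between genotypes. Psme3, the nuclear PA28 gamma, measured 67.6 ± 2.04 in idKO ventricles and 71.0 ± 6.34 in control ventricles. Psmf1, the inhibitor PI31, measured 20.2 ± 2.81 in idKO ventricles and 22.6 ± 2.01 in control ventricles. The assembly chaperones Psmd5, Psmd9 and Psmd10 had log2 values of 0.07, 0.06 and 0.06 in ventricles.

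The 31 constitutive subunits held no called gene in ventricles but leaned to lower values in idKO. By limma 0 of 31 passed, and 13 had an unadjusted p under 0.05, against the 15.0% of all genes; DESeq2 and edgeR also called none. On the deposited scale 27 of 31 had a negative fold change, against 52.0% of all genes, and 9 of 31 had every idKO library below every control. Over all 45 genes 11 were separated in this way, against 5.81% of all genes tested. The median log2 fold change of the 31 was -0.13, where that of all genes was -0.01. Rescaling to all genes moved both medians up, to -0.02 and 0.09, and left 19 of 31 negative. The gap between the medians lay between -0.12 and -0.11 under each scaling, filter, pseudocount and tool tried. A scaling shifts all genes of a library nearly alike, so it could not have altered this gap much. The subunits lay closer together than genes at large, with a standard deviation of 0.083 among their log2 fold changes against 0.252 among all genes. All genes include many with fewer reads and larger counting error, and no set of like level was compared.

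Of 6 cardiomyocyte markers 5 were negative in these ventricles as well, with a median of -0.11, and 3 had every idKO library below every control. Ryr2, the calcium release channel, was called lower (1485 ± 179 in idKO and 2342 ± 177 in control ventricles; log2 -0.66, limma adjusted p = 0.00111). The part of cardiomyocyte RNA in the subunits' values was not tested.

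On the deposited scale, where 52.0% of all genes were negative, the lean was shared by the subcomplexes. Scaled to all genes, 19 of the 31 constitutive subunits were negative. All 6 ATPase genes were negative, with a median of -0.15 and 4 with an unadjusted p under 0.05. The 19S non-ATPase genes had 9 of 11 negative (median -0.14), the constitutive beta ring 7 of 7 (median -0.12) and the alpha ring 5 of 7 (median -0.06). The exceptions on the positive side were Psma5, Psma7, Psmd6 and Psmd14, between 0.03 and 0.10. Psmd2, a scaffold of the 19S base, had the smallest p of the constitutive set. It measured 260.5, 257, 288.9 and 286 in idKO ventricles, against 322, 310.1, 311 and 309 in control ventricles, which do not overlap (log2 -0.20 ± 0.06, limma adjusted p = 0.110). It was called when both chambers were fitted together (adjusted p = 0.042). Psmc6, an ATPase, measured 129, 124, 132 and 132 in idKO ventricles and 148, 161, 154 and 137 in control ventricles (log2 -0.21 ± 0.06, limma adjusted p = 0.123).

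In atria no proteasome gene was called, and 2 of 43 had an unadjusted p under 0.05, against 4.61% of all genes; DESeq2 and edgeR also called none. Over all 14523 genes tested in atria 0.0207% were called higher and 0% lower. The constitutive median was 0.03, with 10 of 31 negative. Psmb3, a structural beta subunit, had the smallest p. It measured 60.8, 60.7, 68.7 and 57.7 in idKO atria, against 52.7, 57.4, 55.9 and 55.7 in control atria, with each idKO library above each control (log2 0.16 ± 0.07, limma adjusted p = 0.966). Psmd6, a 19S lid subunit, measured 58.2, 53.8, 52.8 and 58.7 in idKO atria against 48.9, 49.6, 49.3 and 55.1 in control atria, which overlap (log2 0.14 ± 0.07, limma adjusted p = 0.966).

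**Figure D4:**
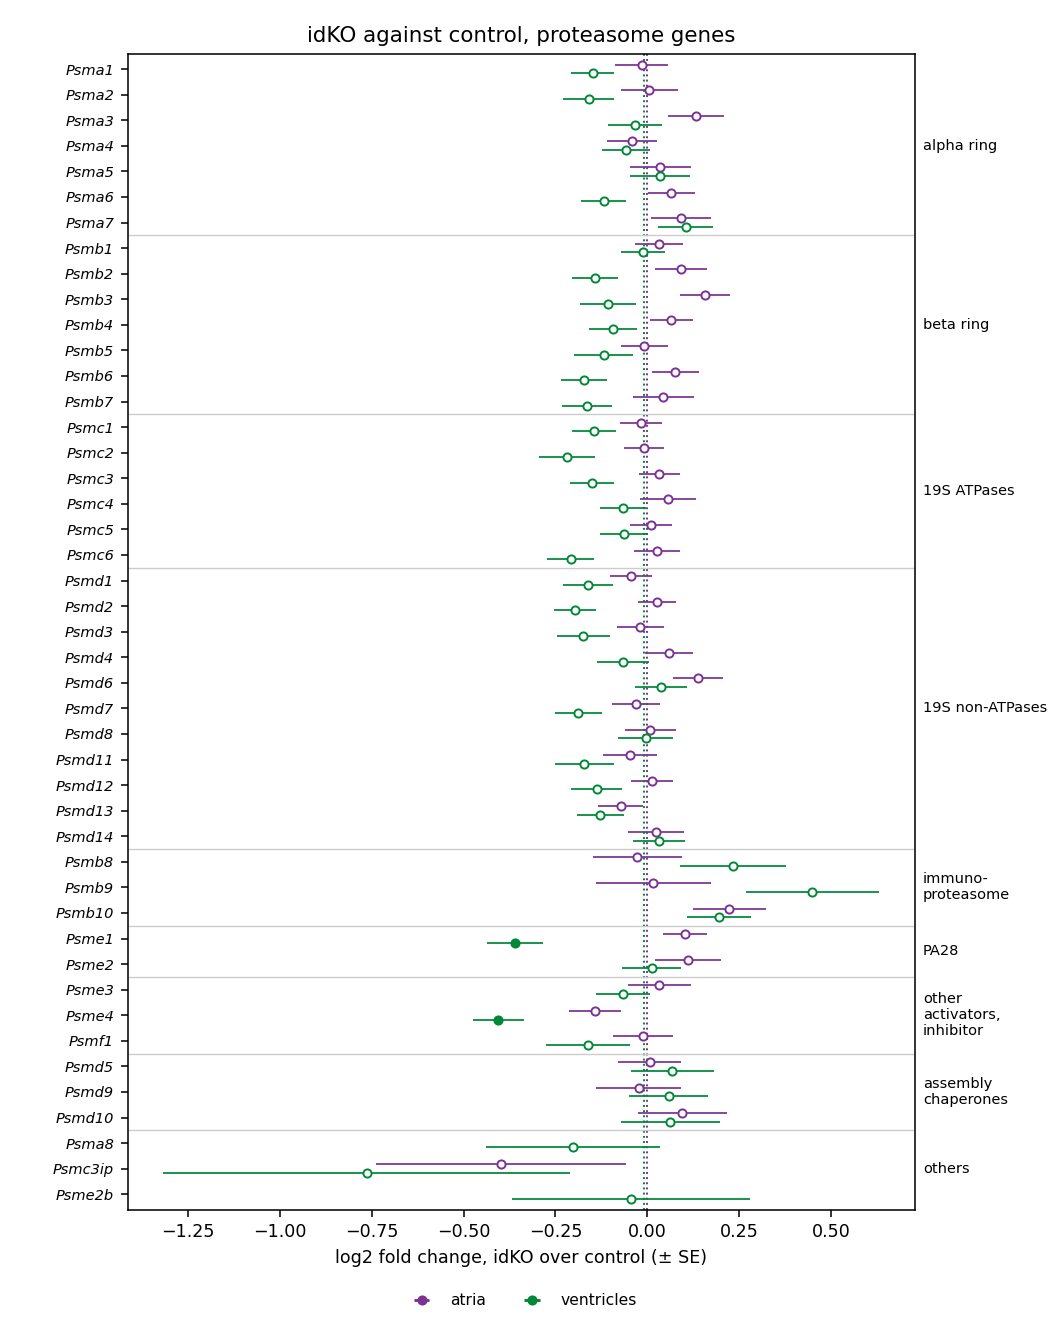
Log2 fold change of idKO over control (x axis, with SE) for each proteasome gene in atria and ventricles, ordered by role; filled points passed limma's adjusted p of 0.05 and dotted lines mark the medians of all genes tested. In ventricles 27 of 31 constitutive subunits lie left of 0 on the deposited scale (19 after scaling to all genes), the 3 immunoproteasome genes lie right, and Psme1 and Psme4 are the filled points.

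Set against each other, the chambers differed in genotype effect for the constitutive subunits in sign more than in calls. The atrial effect less the ventricular effect was positive for 29 of 31, with a median of 0.13 against 0.01 for all genes, and none was called. Rescaled to all genes 23 of 31 were positive. Rescaled to the constitutive subunits themselves 16 were positive. That scaling sets their mean level equal in every library, so a nearly even split was fixed in advance. Unadjusted p under 0.05 was found for 8 of the 31 and for 6.54% of all genes, led by Psmd2 (0.22 ± 0.07), Psmb6 (0.25 ± 0.08) and Psmc6 (0.23 ± 0.08), with limma adjusted p of 0.408, 0.504 and 0.584. For Psmb8 and Psmb9 the same difference was -0.26 ± 0.20 and -0.43 ± 0.25, and neither was called (limma adjusted p = 0.914 and 0.832). A p that misses the threshold does not show that the chambers respond alike.

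Partners of the proteasome outside the name rule followed the subunits in part. Of 15 such genes in the table, Sem1, a small subunit of the 19S lid, was called lower in idKO ventricles (117 ± 4.01 in idKO and 146 ± 8.56 in control ventricles; log2 -0.32, limma adjusted p = 0.017), and none was called in atria. Nfe2l1, the transcription factor that induces proteasome genes when proteasome activity falls, averaged 595 in idKO and 715 in control ventricles and was not called (log2 -0.27, limma adjusted p = 0.110). Of 17 genes of ubiquitin and substrate delivery, the muscle ubiquitin ligase gene Trim63 came nearest to a call in ventricles, at 173 in idKO and 226 in control ventricles (log2 -0.40, limma adjusted p = 0.056).

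Between chambers the constitutive subunits were lower in atria than in ventricles on the deposited scale, in both genotypes. In control hearts 37 of the 45 genes were called lower in atria and 2 higher, where 28.7% of all genes were lower and 28.2% higher. All 31 constitutive subunits were among the lower, with a median log2 fold change of -0.57 against 0.02 for all genes and a range from -1.12 for Psmb7 to -0.31 for Psmd8. This direction rests on the scaling. Scaled to all genes, the median of all genes moved to 0.51 and that of the subunits to -0.01, with 6 subunits called higher and 5 lower, and of the 45 genes 12 were called higher and 7 lower. Scaled to nuclear genes, 24 of 31 stayed lower with a median of -0.27, where all genes had 0.29. Relative to the median of all genes, the subunits lay lower by 0.51 to 0.60 under every setting tried. All 31 were below that median each time. A scaling shifts all genes of a library nearly alike, and the mouse block leaves the fold changes unchanged. Many of these settings thus could not have altered the gap much.

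The genes with the smallest p in control hearts were Psme1, Psmb7, Psme4, Psmd6, Psmd12 and Psmc3. Psme1 averaged 63.9 ± 2.55 in control atria and 149.6 ± 6.67 in control ventricles (log2 -1.21 ± 0.07). Psmb7 measured 83.1, 100.1, 96.5 and 82.9 in control atria, against the ventricular values given above, or 45.7% of them, and Psme4 stood at 48.8%. These 3 stayed lower and called under each scaling tried, as did Psmd6 and Psmd12. Psmd12, a 19S lid subunit, measured 81.9, 84.7, 83.1 and 85.3 in control atria. The control ventricles stood at 144, 150.2, 139 and 138 for Psmd12, above every control atrium. Psmd6 had its control atria, given above, against 92.9, 94.5, 94.0 and 85.6 in control ventricles. Psmc3, an ATPase, measured 158, 177, 168 and 158 in control atria, below the 243, 268, 255 and 255 in control ventricles, and lost its call when scaled to all genes (adjusted p = 0.254).

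Psmb8 and Psmb9 went the other way from their partners in control hearts. Psmb8 was higher in control atria than in control ventricles, with no overlap (log2 0.36 ± 0.14, limma adjusted p = 0.036), and Psmb9 was higher with overlapping groups (0.51 ± 0.18, limma adjusted p = 0.020). Both calls stayed under each scaling. Those to nuclear genes, to all genes and to the constitutive subunits raise atria against ventricles, so they could only raise these values. The call of Psmb8 was lost without control mouse 1, 2 or 3 (adjusted p = 0.102, 0.086 and 0.128). The call of Psmb9 was lost without control mouse 3 (adjusted p = 0.108), each mouse leaving with both chambers. Psmb10 was lower in control atria, like the constitutive genes (-0.68 ± 0.09), and lost its call when scaled to all genes (adjusted p = 0.216) or to the constitutive subunits (0.292). In idKO hearts Psmb8 and Psmb9 had log2 values of 0.10 ± 0.14 and 0.08 ± 0.18 and were not called, and they were called when scaled to all genes or to the constitutive subunits. Psmb10 was at -0.65 ± 0.09.

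The idKO hearts repeated the chamber pattern of the other genes. There, too, 37 of 45 genes were called lower in atria, and 1 higher, Psmf1, where 27.1% of all genes were lower and 26.8% higher. Scaled to all genes these became 6 lower and 13 higher. All 31 constitutive subunits were called lower, with a median of -0.42 against 0.02 for all genes. Relative to the median of all genes this was -0.44, and -0.45 to -0.38 under the settings tried. The same limit on the scalings and the mouse block holds here. Psmf1 averaged 25.7 ± 0.812 in idKO atria and 20.2 ± 2.81 in idKO ventricles (log2 0.34 ± 0.10, limma adjusted p = 0.00595), and in control hearts 26.0 ± 2.08 in atria and 22.6 ± 2.01 in ventricles without a call. The chaperones Psmd5 and Psmd10 were called in neither genotype, and Psmd9 was called lower in idKO hearts (-0.33 ± 0.11, limma adjusted p = 0.016). Psma8, near the detection limit, was called lower in control hearts (log2 -0.57, limma adjusted p = 0.0499) and not in idKO hearts. Psme2 and Psme3 were lower in atria in both genotypes, with log2 values of -0.45 and -0.50 in idKO hearts and -0.55 and -0.59 in control hearts, and scaling to all genes turned the sign for Psme2. In control hearts the genes that did not pass were Psmd5, Psmd9, Psmd10, Psmf1, Psme2b and Psmc3ip.

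**Figure D5:**
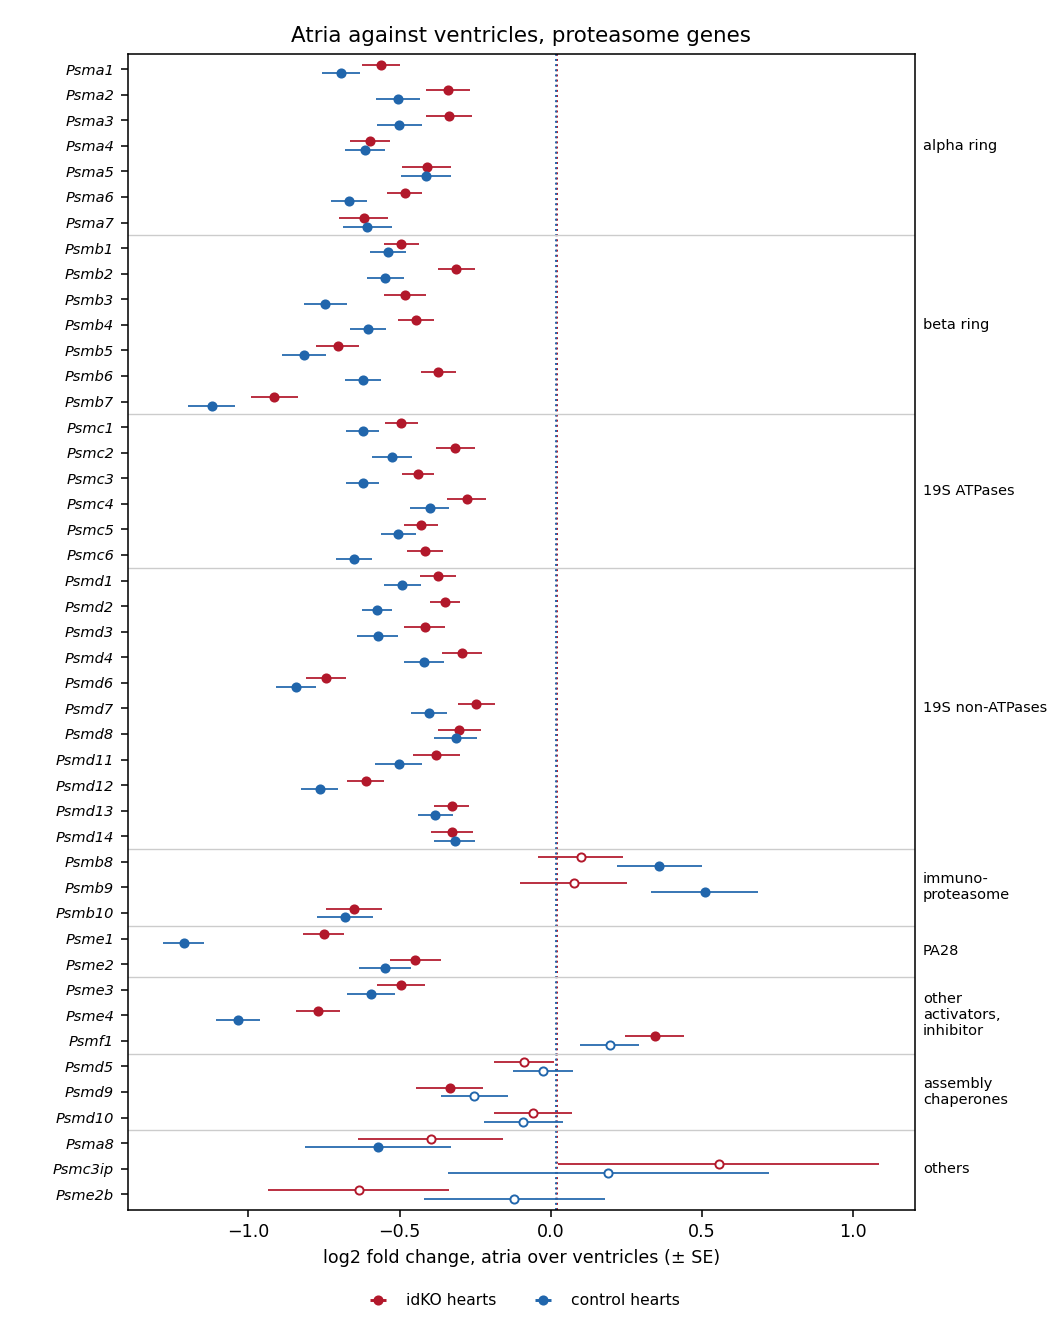
Log2 fold change of atria over ventricles (x axis, with SE, on the deposited scale) for each proteasome gene in idKO and control hearts, ordered by role; filled points passed limma's adjusted p of 0.05 and dotted lines mark the medians of all genes tested. All 31 constitutive subunits lie left of the dotted lines, and Psmb8 and Psmb9 lie right of 0; scaled to all genes the constitutive median moves to -0.01 in control hearts and 0.06 in idKO hearts.

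On the deposited scale, other genes of the pathway shared the chamber difference. Of all genes tested, 28.7% were called lower and 28.2% higher in control atria, and 27.1% and 26.8% in idKO atria. As for the subunits, a chamber direction depends on the scaling, and no rescaled counts are given for these genes. Of 15 partners 12 were lower in control atria, among them Pomp, the maturation factor of the core (67.1 in control atria and 112 in control ventricles), Nfe2l1 (386 and 715 in the same groups), Sem1, Usp14, Adrm1, Txnl1, Ube3c, Akirin2, Psmg1, Psmg2, Psmg4 and AI314180. In idKO hearts 13 were lower. Ddi2, the protease that activates NFE2L1, stood at 70.5 in control atria and 70.3 in control ventricles. Of 17 ubiquitin genes 12 were lower in control atria, with Trim63 lowest at a log2 of -1.02, and 1 higher, Ubqln2 (0.42), and in idKO hearts 11 were lower and 1 higher. Of the 10 MHC class I genes 7 were higher in atria in each genotype, and Erap1, a peptidase, was lower in both.

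Cell type markers moved with the chambers as well, on the deposited scale. The effective size was 0.958 and 0.947 of the reads in idKO and control atria. It was 0.687 and 0.639 in idKO and control ventricles, which raises ventricular values against atrial ones. These sums and calls thus depend on the scaling, and no rescaled values are given for the markers. Of 6 cardiomyocyte markers 4 were lower in atria in each genotype and Ryr2 was higher in idKO atria (log2 0.36), with summed levels of 47641 to 55101 in idKO atria, 48966 to 57379 in control atria, 66525 to 76597 in idKO ventricles and 75502 to 80049 in control ventricles. All 6 fibroblast markers were higher in atria in both genotypes. Of the macrophage markers 4 of 7 were higher in control atria and 1 of 7 in idKO atria. Of 3 mesothelial markers all were higher in atria in both genotypes, with medians of 3.96 in idKO and 3.05 in control hearts, and of 6 endothelial markers 2 were higher and 3 lower in each. Of 5 lymphocyte genes measured, 2 were higher in idKO atria and 5 in control atria, with sums from 13.5 to 82.4 in idKO atria, 27.4 to 81.0 in control atria, 11 to 14.9 in idKO ventricles and 11.9 to 12.6 in control ventricles. The mitochondrial share of the recovered reads averaged 17.2% in idKO and 17.2% in control atria, and 29.0% in idKO and 30.9% in control ventricles. The part of cell makeup and of mitochondrial reads in the chamber differences was not tested.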

How the data were processed

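RNA was taken from atria and ventricles of 8 mice. Polyadenylated RNA from 20 ng was read from one end over 60 bases, per the labels' protocols. The submitters' processing notes name GRCm38, RSEM 1.3.1 and cutadapt. The deposited values are a normalised signal, in which each value equals whole reads with 0.5 added, over an effective size of the library, times 1000000. By that step 100% of values came out whole within 0.01 of a read. How the authors set that size is stated in no source used here.

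The test was limma 3.58.1 (R 4.3.3) on log2(value + 1), two-sided, with a trended prior and Benjamini-Hochberg adjustment over all genes tested. A gene was tested with at least 1 per 1000000 of the summed values in 4 libraries, and called at an adjusted p under 0.05. Fold changes are on that scale, which understates those of low genes. Each chamber's genotype comparison used its own 8 libraries, and the other comparisons all 16. Genotype and chamber comparisons share libraries. Scaled values, not raw counts, were deposited, hence limma. Mouse numbers pair atrium and ventricle: deviations from group means correlated at 0.188 to 0.325 within mice. The main fits over all 16 libraries left this pairing out, and the mouse as a block was an alternative. Count tests on the recovered reads (edgeR 4.0.16, DESeq2 1.42.0) served as alternatives. In ventricles edgeR called 77 genes higher and 183 lower, against 70 and 197 by limma. The fits were tested on simulated data.

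Members and lists were chosen with earlier results of these data known. Genes with values per library are Psmb5 to Psmb10, Psme1 and Psme2, the 4 smallest p of each genotype comparison and of their difference, and the 6 smallest p of the control chambers, and of other lists all called genes or the smallest p. Reads of overlapping genes cannot be told apart without strand.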

Additional observations from a re-analysis of the deposited data

Results flagged for a closer look

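In 4 of 64 combinations of gene and group checked (15 genes and the ratio, 4 groups), 1 library stood apart from the other 3 by more than Dixon's critical value, and chance gives about 1 in 20. Psmb10 measured 50.8 in control ventricle 2, where the other controls ran from 39.9 to 41.1. Psmb3 measured 108 in the same library, against 87.7 to 90.2. Psmd2 measured 322 in control ventricle 1, against 309 to 310.6. Psmd6 measured 55.1 in control atrium 4, against 48.9 to 49.6. The genotype effect on Psme1 differed between atria and ventricles by 0.46 on the log2 scale, which passed limma's test of the difference.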

How the results depend on the processing

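Each test was repeated under 20 or 21 alternatives. In ventricles the count of members called lower was 2, and 1 when scaled to nuclear genes, to all genes or, chosen after seeing the data, to the constitutive subunits, 0 with an untrended prior, and 1 to 2 with a library left out; none was called higher. The 1 gene called for the difference of genotype effects, Psme1, became 0 under those 3 scalings, the untrended prior and edgeR, and 0 to 1 with a mouse left out. In atria the count stayed at 0 in all. In control hearts the 2 genes higher in atria became 4 scaled to nuclear genes, 12 scaled to all genes, 12 scaled to the constitutive subunits, and 0 to 2 with a mouse left out, where without control mouse 3 neither Psmb8 nor Psmb9 was called; the 37 lower became 7 scaled to all genes and 7 scaled to the constitutive subunits. In idKO hearts the 1 gene higher became 2, 13 and 8, and the 37 lower became 20, 6 and 8, scaled to nuclear genes, to all genes and to the constitutive subunits, and the mouse as a fixed replicate block gave 2 higher. Turned in sign were Psme2 in control hearts (0.00724 and 0.0296, scaled to all genes and to the constitutive subunits), Psmb6 in idKO hearts (0.105 and 0.0743) and Psme2 in idKO hearts scaled to all genes (0.0237). The summed log2 ratio differed between genotypes in ventricles by 0.40, and by 0.36 to 0.45 with a library left out. As the mean of the 3 pairs it differed there by 0.47, and between chambers by 0.51 in idKO and 0.95 in control hearts. Scaling to the constitutive subunits sets their mean level equal in every library, so any shift they share is removed by design. The cause of these changes was not tested beyond the shift of all genes that each scaling makes. Scalings bear on every chamber direction, 4 mice a group limit small changes, and Psma8 and Psme2b lie near 1 normalised count.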

Other observations

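Psmc3ip, which the name rule takes in although it encodes no subunit, split by mouse in both chambers. In idKO mice 1 to 4 it measured 3.08, 10.2, 3.69 and 4.40 in atria and 2.16, 9.36, 1.02 and 2.74 in ventricles. In control mice 1 to 4 it measured 4.21, 10.2, 4.41 and 10.1 in atria and 1.43, 13.5, 3.57 and 11.8 in ventricles. The atrium and the ventricle of idKO mouse 2 and of control mice 2 and 4 were the highest of their groups, and the gene was called in neither genotype comparison.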
